A study of Homo sapiens with 20 samples.

Results

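CXCL1, CXCL2, CXCL3, CXCL5, CXCL6 and CXCL8 are CXC chemokines, small secreted proteins that draw neutrophils to a tissue. All 6 genes were found by symbol among the 58676 genes of the deposited count table. All 6 were among the 12111 genes with enough reads to be tested, CXCL6 only through the groups where it was high. RNA-seq was made from an immortalized line of human pericytes, the mural cells that wrap capillaries, named CL 05008-CLTH and labelled wild-type. The 20 libraries fell into 4 groups of 5. Control cells received neither protein, and no time is given for them. The other groups were treated for 4 h with recombinant human eNAMPT (the extracellular form of nicotinamide phosphoribosyltransferase, an NAD-synthesis enzyme that acts as a cytokine outside cells) at 500 ng/mL, with PDGF-BB (a platelet-derived growth factor that binds the receptor PDGFRB on pericytes) at 20 ng/mL, or with both. All cells grew in DMEM with 10% fetal bovine serum, so the controls were exposed to serum too. One cell line was used, and the labels call the 5 libraries of a group biological replicates without saying how they were separated. The p-values therefore measure the spread between these libraries.

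CXC chemokines with a glutamate-leucine-arginine motif before the first cysteines bind the receptors CXCR1 and CXCR2, which neutrophils carry. CXCL8 and CXCL6 act on both receptors, and the other members act mainly on CXCR2. Their genes are kept low in resting cells and are switched on by inflammatory signals, with NF-kB as the best known activator at their promoters, and their mRNAs are short-lived because of AU-rich elements in the 3′ UTR. Pericytes stand next to the capillary wall and can secrete these chemokines where leukocytes leave the blood.

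The 6 genes form a cluster on chromosome 4 (GRCh38, GENCODE 29). CXCL8 (ENSG00000169429) lies at chr4:73740506-73743716, CXCL6 (ENSG00000124875) at chr4:73836497-73849064 and CXCL1 (ENSG00000163739) at chr4:73869393-73871242, all on the plus strand. CXCL5 (ENSG00000163735) lies at chr4:73995642-73998779, CXCL3 (ENSG00000163734) at chr4:74036589-74038807 and CXCL2 (ENSG00000081041) at chr4:74097035-74099293, all on the minus strand. Annotated transcripts of these genes have 2 to 4 exons. The coding sequences of CXCL1, CXCL2 and CXCL3 were 90.7% to 94.4% identical to each other, those of CXCL5 and CXCL6 were 87.5% identical, and CXCL8 was 46.6% to 50.6% identical to the other 5.

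The promoters are shown here because the longest run of bases found in all 6 was a single stretch, GGAATTTCC, at nearly the same distance from each start site. The sequences come from RefSeq (GRCh38.p14), with windows from 250 bases before to 50 after each gene's start site. All 6 genes had a window. Each line gives 30 bases 5′ to 3′ on the gene's own strand, and capitals mark the shared run.
CXCL8: tgcaaatcgtGGAATTTCCtctgacataat
CXCL6: ctgagttcagGGAATTTCCccagcatccca
CXCL1: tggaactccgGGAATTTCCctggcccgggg
CXCL5: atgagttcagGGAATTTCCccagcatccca
CXCL3: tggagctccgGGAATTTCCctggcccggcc
CXCL2: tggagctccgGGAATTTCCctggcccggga
These stretches lie at chr4:73740468-73740497 (CXCL8, plus strand), chr4:73836579-73836608 (CXCL6, plus), chr4:73869305-73869334 (CXCL1, plus), chr4:73998748-73998777 (CXCL5, minus), chr4:74038748-74038777 (CXCL3, minus) and chr4:74099253-74099282 (CXCL2, minus). GENCODE holds transcripts of some members that start further upstream than the RefSeq start site, and for CXCL5 this is its only transcript. The stretches shown lie inside the GENCODE span of CXCL6, CXCL5, CXCL3 and CXCL2, and outside that of CXCL8 and CXCL1. Distances below are from the RefSeq start site. The first base of the run was 91 bases before the start site in CXCL8, 89 in CXCL6, 78 in CXCL1, 90 in CXCL5, 78 in CXCL3 and 77 in CXCL2. The bases around the run divided the genes into CXCL1, CXCL2 and CXCL3, then CXCL5 and CXCL6, then CXCL8. Over the whole window CXCL5 and CXCL6 were 83.1% identical, CXCL1 and CXCL3 82.5%, CXCL2 and CXCL3 71.8% and CXCL1 and CXCL2 68.5%, whereas CXCL8 was 35.8% to 41.8% identical to the others.

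The run, searched on both strands, was present in 162 of 35116 promoter windows of the same length (0.461%). It overlaps the NF-kB consensus site, which was found on either strand in the window of 5 of the 6 members and in 11.3% of all windows. The member without a match to the consensus was CXCL8, although it holds the run. Its run has a T on either side, where the run of the other members has a G before it and a C after it. A match to the consensus over the run needs that G or that C. CXCL8 was also the one member with the AP-1 site TGANTCA (both strands, 7.71% of all windows) and with the TATA box core TATAAA (gene strand, 7.33% of all windows). CXCL2 was the one member with the CRE core TGACGT (both strands, 7.98% of all windows). These matches describe letters in a window, and binding was not measured.

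All 6 members had their lowest mean in control cells and their highest after both proteins, within the spread of eNAMPT alone for CXCL6. Between the single treatments 1 member, CXCL1, was called, and CXCL8 joined it only in an alternative fit with a term for replicate number. CXCL1 rose more with eNAMPT than with PDGF-BB, CXCL8 rose with either protein to levels that overlapped, and CXCL2, CXCL5 and CXCL6 were called against control after both together and not after either protein alone, although CXCL6 with eNAMPT stood close to the threshold. Levels are given in CPM, the read count per 1000000 reads of the library after TMM scaling (a correction that keeps a few abundant genes from shifting all others), with mean ± SD (n = 5). Calls are at an adjusted p under 0.05 over all 12111 genes tested (edgeR's quasi-likelihood test). Libraries held 2894878 to 4011066 reads assigned to genes. In bulk RNA, fewer expressing cells and less RNA per cell cannot be told apart.

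**Figure D1:**
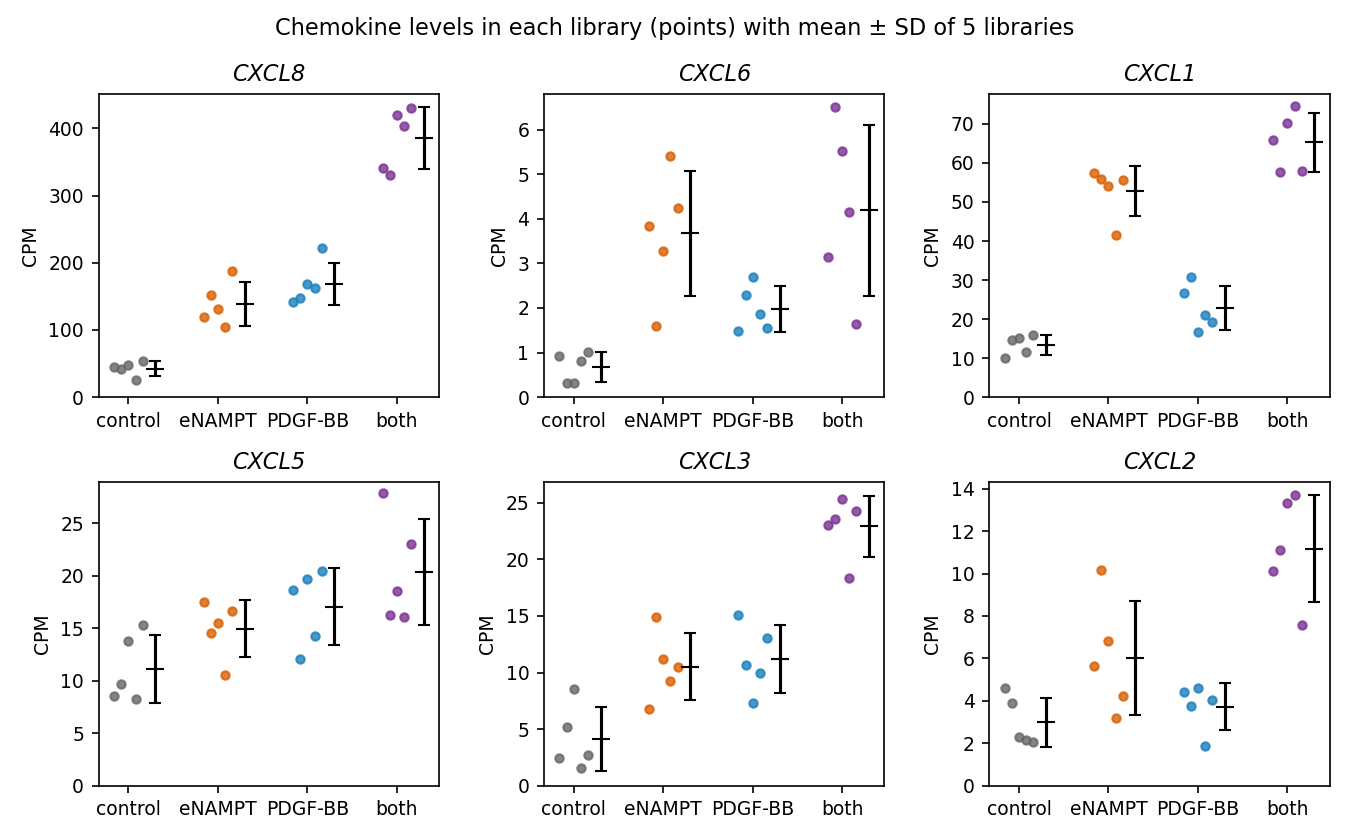
CPM of each chemokine (vertical axes start at 0) in the 20 libraries: points are libraries, and the bar beside each group is the mean ± SD of 5. CXCL8 climbs from a mean of 42.5 CPM in control to 385 CPM with both proteins, and CXCL1 with eNAMPT lies above CXCL1 with PDGF-BB in every library.

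CXCL8 encodes interleukin-8, the classic human neutrophil attractant, and had the highest level per kb of exon of the 6 genes in every group. In the 5 control libraries it measured 45.0, 42.0, 47.6, 24.8 and 53.2 CPM. With eNAMPT it measured 120, 152, 131, 104 and 188 CPM, and with PDGF-BB 142, 148, 169, 162 and 222 CPM. With both it measured 341, 330, 420, 404 and 431 CPM. Every treated library lay above every control library, and every library with both lay above every library with a single protein, while the single treatments overlapped. The means were 42.5 ± 10.7, 139 ± 32.6, 169 ± 31.6 and 385 ± 46.4 CPM. On the log2 scale CXCL8 rose by 1.72 (SE 0.14) with eNAMPT (adjusted p = 2.37e-11), 2.00 (SE 0.14) with PDGF-BB (adjusted p = 1.79e-13) and 3.19 (SE 0.14) with both (adjusted p = 1.07e-20). The last of these was the smallest p among all genes tested in that comparison. Adding eNAMPT to PDGF-BB raised CXCL8 by 1.19 on the log2 scale (SE 0.13, adjusted p = 2.24e-08), and adding PDGF-BB to eNAMPT raised it by 1.47 (SE 0.13, adjusted p = 4.32e-11). PDGF-BB against eNAMPT gave a log2 fold change of 0.28, with a 95% confidence interval of 0.03 to 0.53, and was not called (adjusted p = 0.494). With a term for replicate number added to the edgeR fit, this difference was called (0.28, adjusted p = 0.0152).

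CXCL1 encodes GROα, the founding member of the GRO chemokines. It measured 10.1, 14.5, 15.1, 11.5 and 16.0 CPM in control libraries. With eNAMPT it measured 57.4, 55.8, 54.0, 41.4 and 55.5 CPM, and with PDGF-BB 26.6, 30.7, 16.7, 21.1 and 19.2 CPM. With both it measured 66.0, 57.7, 70.2, 74.6 and 57.8 CPM. All PDGF-BB libraries lay above all controls, and all eNAMPT libraries above all PDGF-BB libraries. All libraries with both lay above all eNAMPT libraries, but only just (57.7 against 57.4 CPM at the closest). Against control its rise on the log2 scale was 1.98 (SE 0.16, adjusted p = 4.30e-12) with eNAMPT, 0.77 (SE 0.17, adjusted p = 0.00577) with PDGF-BB and 2.29 (SE 0.15, adjusted p = 1.09e-14) with both. In the fit without a term for replicate number, CXCL1 was the one member called between the single treatments. Its log2 difference of PDGF-BB from eNAMPT was -1.21 (SE 0.14, adjusted p = 2.24e-07). Adding eNAMPT to PDGF-BB raised it by 1.51 (SE 0.14, adjusted p = 1.46e-09). Adding PDGF-BB to eNAMPT gave a log2 fold change of 0.31 (95% confidence interval 0.04 to 0.57) that was not called (adjusted p = 0.369). The rise with PDGF-BB missed the threshold without PDGF-BB replicate 2 (adjusted p = 0.0503), with limma-voom (adjusted p = 0.0505) and when libraries were scaled to the added spike-in RNAs in place of TMM (adjusted p = 0.0742).

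CXCL3, or GROγ, stood at 1.85 ± 1.27 CPM per kb of exon in control cells, level within the spread with CXCL2 at 1.99 ± 0.777 and below CXCL1 at 10.4 ± 1.96. The library kind is not given, so whether levels should be divided by length is open. Without that division the control means were 4.10 ± 2.81 CPM for CXCL3 and 2.99 ± 1.17 CPM for CXCL2. CXCL3 measured 2.45, 5.17, 8.54, 1.60 and 2.73 CPM in control libraries. With eNAMPT it measured 6.80, 14.9, 11.2, 9.24 and 10.4 CPM, and with PDGF-BB 15.1, 10.6, 7.29, 9.94 and 13.0 CPM. With both it measured 23.0, 23.6, 25.4, 18.4 and 24.3 CPM. Control replicate 3 (26 reads) reached into the range of both single treatments, and the libraries with both stood clear of all others. On the log2 scale CXCL3 rose by 1.46 (SE 0.30, adjusted p = 0.0033) with PDGF-BB and 2.50 (SE 0.29, adjusted p = 3.64e-08) with both. With eNAMPT alone the log2 fold change was 1.38 (SE 0.30) and narrowly missed the threshold (adjusted p = 0.0569). Without control replicate 3 it was 1.83 (adjusted p = 0.00123), and without eNAMPT replicate 1 it was 1.50 (adjusted p = 0.0207). The rise with eNAMPT was also called by DESeq2, and by edgeR with a term for replicate number (adjusted p = 0.00171). Limma-voom did not call it. Adding PDGF-BB to eNAMPT raised CXCL3 by 1.12 (SE 0.25, adjusted p = 0.00703), which was not called with spike-in scaling (adjusted p = 0.150). Adding eNAMPT to PDGF-BB gave 1.03 (SE 0.25) and was not called (adjusted p = 0.161), but it was called by DESeq2 (adjusted p = 0.0318) and by limma-voom (adjusted p = 0.0265).

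CXCL2, or GROβ, measured 4.59, 3.88, 2.30, 2.14 and 2.05 CPM in control libraries. With eNAMPT it measured 5.62, 10.1, 6.81, 3.19 and 4.24 CPM, and with PDGF-BB 4.43, 3.73, 4.59, 1.86 and 4.03 CPM. With both it measured 10.1, 11.1, 13.3, 13.7 and 7.56 CPM. The PDGF-BB libraries lay within or close to the control range, the eNAMPT libraries overlapped it, and all libraries with both lay above all controls and all PDGF-BB libraries. CXCL2 rose with both by 1.89 on the log2 scale (SE 0.34, adjusted p = 0.000291). The values with eNAMPT (1.00, SE 0.35, adjusted p = 1.00) and with PDGF-BB (0.32, SE 0.37, adjusted p = 0.878) were not called. Adding eNAMPT to PDGF-BB raised it by 1.57 on the same scale (SE 0.32, adjusted p = 0.0317). That last call ended in 9 of 10 fits that each left out 1 library of the pair (adjusted p from 0.0209 to 0.183) and with spike-in scaling (adjusted p = 0.901). With a term for replicate number in the edgeR fit the call was kept (adjusted p = 0.00434).

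CXCL6, or granulocyte chemotactic protein 2, had the lowest level per kb of exon of the members in every group. Control libraries held only 1 to 3 reads each, or 0.918, 0.323, 0.328, 0.801 and 1.02 CPM. With eNAMPT it measured 3.85, 1.59, 3.27, 5.42 and 4.24 CPM, and with PDGF-BB 1.48, 2.30, 2.70, 1.86 and 1.55 CPM. With both it measured 3.14, 6.50, 5.53, 4.14 and 1.64 CPM. Each treated library exceeded each control library, and the treated groups overlapped one another. Because the control counts are so small, the ratio of summed reads is given with an exact 95% interval, which covers counting error only. CXCL6 stood at 5.35 times control under eNAMPT (2.79 to 11.3), at 2.92 times under PDGF-BB (1.45 to 6.39) and at 6.28 times under the pair (3.31 to 13.1). CXCL6 passed the low-count filter through libraries given eNAMPT, alone or with PDGF-BB, where it is high. PDGF-BB libraries held 5 to 10 reads each. Its tests with eNAMPT and with both are therefore not free of that selection. In the fit across all genes the rise of CXCL6 with both was called (log2 fold change 2.57, SE 0.52, adjusted p = 0.00163). The values with eNAMPT (2.36, SE 0.52, adjusted p = 0.0582) and PDGF-BB (1.49, SE 0.56, adjusted p = 0.278) were not called. For eNAMPT the adjusted p was 0.0259 without eNAMPT replicate 2 and 0.0301 by DESeq2. With a term for replicate number in the edgeR fit it was 0.0392.

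CXCL5, or ENA-78, is the closest relative of CXCL6 in sequence and had the smallest log2 fold change of the members with eNAMPT and with both, though with PDGF-BB that of CXCL2 was smaller. It measured 8.57, 9.69, 13.8, 8.28 and 15.4 CPM in control libraries. With eNAMPT it measured 17.5, 14.6, 15.5, 10.5 and 16.6 CPM, and with PDGF-BB 18.6, 12.1, 19.7, 14.3 and 20.5 CPM. With both it measured 27.9, 16.3, 18.5, 16.1 and 23.0 CPM. Both single treatments overlapped control, and the libraries with both lay just above its top library. CXCL5 rose with both by 0.87 on the log2 scale (SE 0.21, adjusted p = 0.0154). This call was lost when control replicate 1 was left out (adjusted p = 0.0633), as it was for control replicate 4 (0.0727), for replicate 1 of the group with both (0.0846) and with spike-in scaling (0.378). The values of the single treatments, 0.44 for eNAMPT (SE 0.22, adjusted p = 1.00) and 0.62 for PDGF-BB (SE 0.22, adjusted p = 0.203), were not called.

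Read against the whole table, eNAMPT raised 2 of the 6 members, CXCL8 and CXCL1, where 0.0743% of the 12111 genes tested were called higher. They ranked 3 and 2 by p in that comparison, and all 6 fitted values were above 0. DESeq2 and an edgeR fit with a term for replicate number each called 4 members with eNAMPT: CXCL8, CXCL1, CXCL3 and CXCL6. In all, these fits called 14 and 21 genes. Limma-voom called CXCL8 and CXCL1 alone of the members. The libraries did not overlap for CXCL8, CXCL1 and CXCL6, against 0.396% of all genes. PDGF-BB raised 3 members, CXCL8, CXCL3 and CXCL1, where 1.05% of genes were called higher, and CXCL8, CXCL1 and CXCL6 did not overlap control, against 1.52% of genes. Both proteins together raised 6 of 6 members, where 1.63% of genes were called higher, and all 6 stood clear of control, against 1.75% of genes. The 3 comparisons share their control libraries. CXCL6 passed the count filter through the libraries given eNAMPT, so its place in the counts for eNAMPT and for both is partly set by that filter. The median log2 fold change of all genes was within 0.01 of 0 in each comparison. The 6 genes were chosen with earlier results of these data known. Their share against all genes is therefore a description, here and in the comparisons below.

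**Figure D2:**
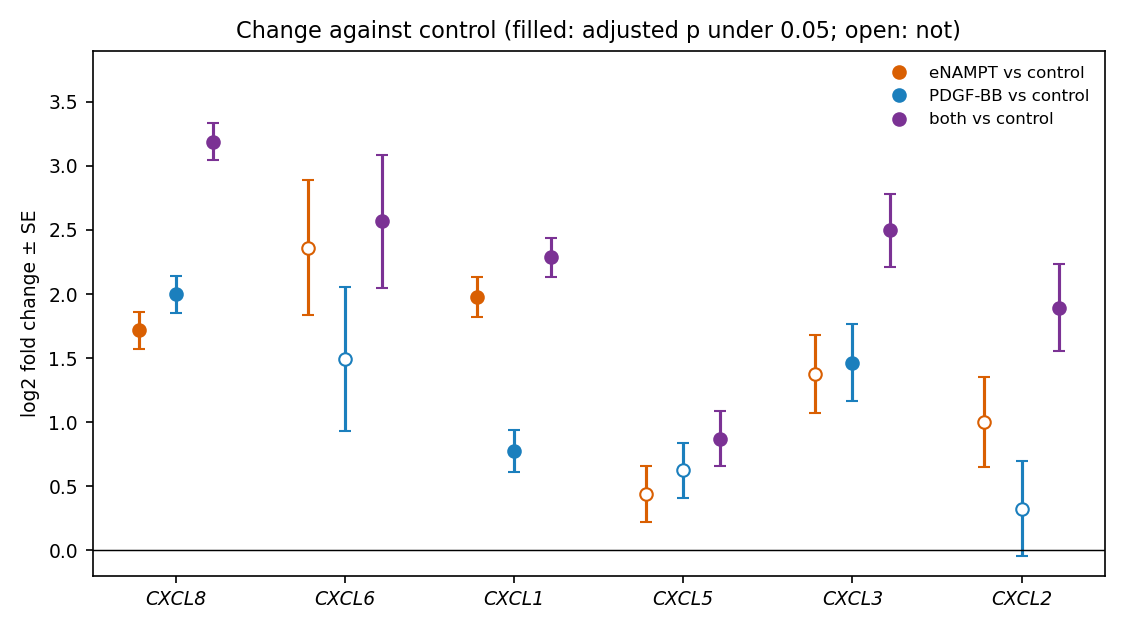
Log2 fold change of each chemokine against control with its SE (vertical axis), in chromosome order, for eNAMPT, PDGF-BB and both. Filled points passed an adjusted p under 0.05 in the fit without a term for replicate number, and open points did not. Both proteins give 6 filled points, PDGF-BB 3 and eNAMPT 2.

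Adding eNAMPT to PDGF-BB raised CXCL1, CXCL8 and CXCL2, 3 of only 7 genes called higher in that comparison (0.0578% of genes). CXCL8, CXCL1, CXCL3 and CXCL2 did not overlap there, against 0.322% of genes. Adding PDGF-BB to eNAMPT raised CXCL8 and CXCL3, where 1.18% of genes were called higher. CXCL8, CXCL3 and, by a narrow margin, CXCL1 did not overlap there, against 1.75% of genes. Between the single treatments CXCL1 alone was called in the fit without a term for replicate number, lower with PDGF-BB, where 0.198% of genes were called lower. CXCL6 (-0.87) and CXCL2 (-0.68) had negative log2 fold changes there as well, neither called (adjusted p = 0.565 and 0.561).

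A separate question is whether the rise with both proteins differs from what the separate rises add up to, and the answer depends on the scale. On the log2 scale, where separate fold changes multiply, no member was called for the interaction in the main fit. No gene was called either (edgeR's quasi-likelihood test, DESeq2 and limma-voom), although 406 genes had an unadjusted p under 0.05. With a term for replicate number added to the edgeR fit, 7 genes were called, among them CXCL8 (-0.50, adjusted p = 0.0451). The labels do not say that a replicate number marks a shared batch. In the main fit the interaction was -0.52 (SE 0.19, unadjusted p = 0.00882, adjusted p = 0.999) for CXCL8 and -0.47 (SE 0.21, unadjusted p = 0.0341, adjusted p = 0.999) for CXCL1, so the fitted rise with both fell short of the product of the fold changes. For CXCL6, CXCL3 and CXCL5 it was -1.29 (SE 0.69), -0.34 (SE 0.39) and -0.19 (SE 0.30). For CXCL2, the only member above 0, it was 0.57 (SE 0.49). Each of these also had an adjusted p of 0.999.

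On the linear scale the excess went the other way for CXCL8. Its rises over control were 96.4 CPM with eNAMPT and 126 CPM with PDGF-BB, which add to 222 CPM, and the rise with both was 343 CPM, an excess of 120 CPM (SE 29.4). CXCL3 showed an excess of 5.33 CPM (SE 2.56) over a sum of 13.5 CPM, and CXCL2 of 4.43 CPM (SE 1.80) over a sum of 3.75 CPM. For CXCL1 the rise with both of 51.8 CPM stood close to the sum of 48.8 CPM, with a difference of 3.01 CPM (SE 5.23). The differences for CXCL5 (-0.484 CPM, SE 3.37) and CXCL6 (-0.781 CPM, SE 1.10) were smaller than their SE. These linear differences are a description, chosen after the levels were seen, and carry no test.

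**Figure D3:**
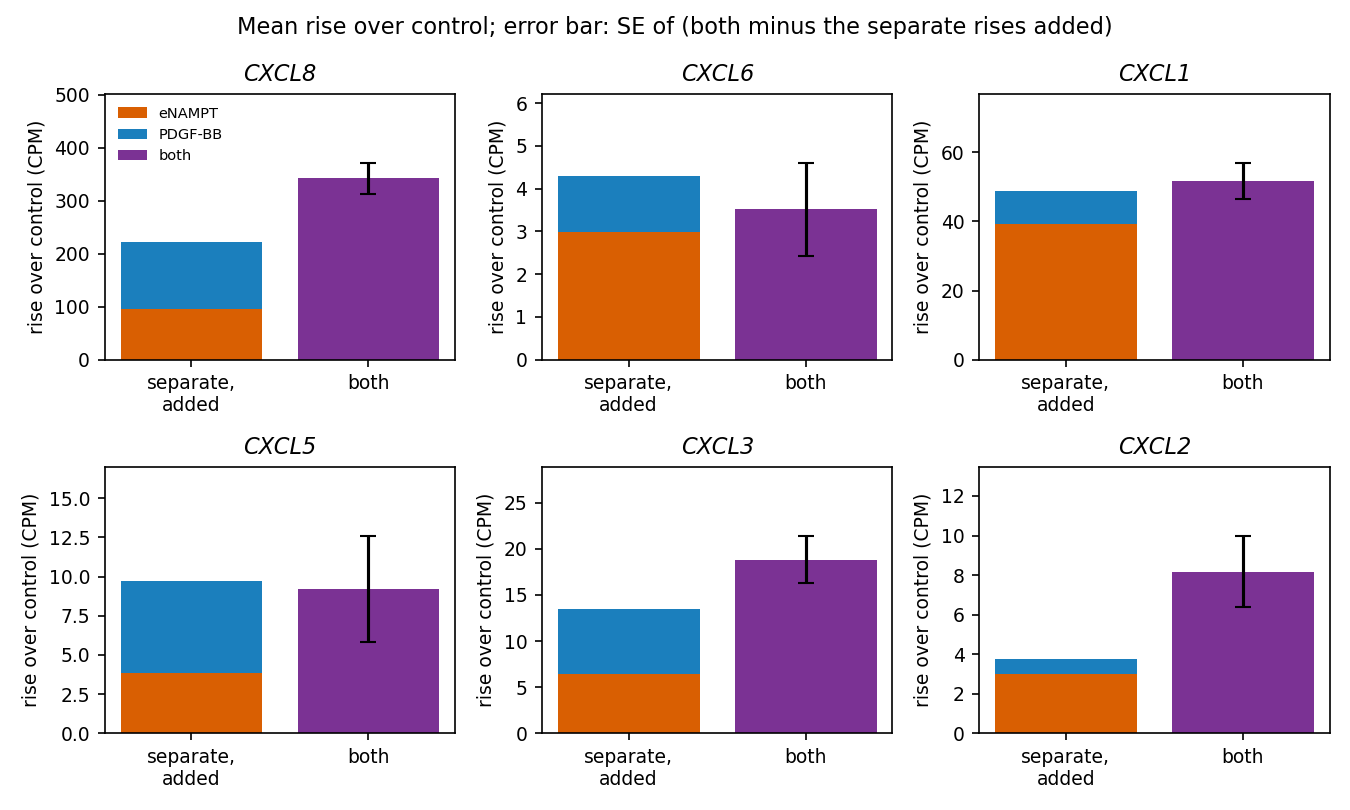
Mean rise over control in CPM (vertical axes start at 0): the left bar stacks the separate rises with eNAMPT and PDGF-BB, the right bar is the rise with both, and the error bar is the SE of the right bar minus the left. CXCL8 with both rises by 343 CPM against 222 CPM added, whereas CXCL1 rises by 51.8 CPM against 48.8 CPM.

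The mix of chemokine reads differed between the groups. The 6 genes summed to 74.9 ± 16.4 CPM in control cells and 509 ± 47.9 CPM after both proteins. The single treatments gave like totals, 227 ± 39.8 CPM for eNAMPT and 225 ± 31.0 CPM for PDGF-BB, of different makeup. CXCL8 took 56.4% ± 4.66 of these reads in control cells and 60.8% ± 4.00 after eNAMPT, against 74.5% ± 4.51 after PDGF-BB and 75.5% ± 2.48 after both. CXCL1 took 18.3% ± 3.38, 23.5% ± 2.71, 10.4% ± 3.38 and 12.9% ± 1.40, in the same order. CXCL5 took 14.9% ± 2.33, 6.63% ± 1.03, 7.56% ± 1.38 and 4.03% ± 1.14, lower after each single treatment than in any control library. These shares are of reads, which are not corrected for transcript length.

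The ratio of CXCL1 to CXCL8 reads, which needs no scaling between libraries, is given for each library. It was 0.224, 0.346, 0.317, 0.462 and 0.301 in control and 0.480, 0.367, 0.413, 0.398 and 0.295 with eNAMPT. It was 0.187, 0.208, 0.0992, 0.130 and 0.0867 with PDGF-BB and 0.193, 0.175, 0.167, 0.185 and 0.134 with both. Every library given PDGF-BB, alone or with eNAMPT, had a lower ratio than every library without it. The mean ratio was 0.330 ± 0.0865 in control and 0.390 ± 0.0676 with eNAMPT, against 0.142 ± 0.0534 with PDGF-BB and 0.171 ± 0.0228 with both. Control overlapped eNAMPT, and PDGF-BB alone overlapped both. The ratio was chosen because CXCL1 and CXCL8 had been seen to differ in this way, so it is a description and carries no test.

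**Figure D4:**
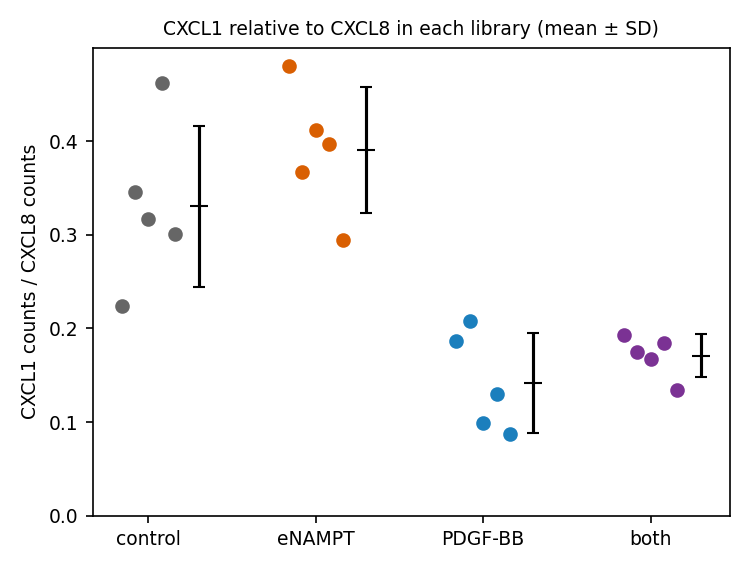
CXCL1 reads divided by CXCL8 reads (vertical axis, no unit, starting at 0) in each library, with the mean ± SD of 5 beside each group. The 10 libraries with PDGF-BB lie at or below 0.208 and the 10 without it at or above 0.224.

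Across the 20 libraries the log2 CPM of CXCL8 and CXCL3 correlated most closely among the members (Pearson r = 0.91), and CXCL5 and CXCL6 least (r = 0.40). These values mostly carry the group differences: after each group's mean was subtracted, the 15 pairs ranged from -0.54 (CXCL3 and CXCL6) to 0.50 (CXCL5 and CXCL8). Outside the 6, the genes most like each member were named by the same measure over 20 libraries and 12102 genes, as a description. CXCL8 was most like CCL2 (r = 0.97), a monocyte attractant, PTX3 (0.96), a soluble pattern receptor, and IER3 (0.95). CXCL3 was most like IL1B (0.89), CCL2 (0.86) and PTX3 (0.84). CXCL1 was most like NFKBIA (0.92), BIRC3 (0.85) and NFKBIZ (0.79). CXCL6 was most like VCAM1 (0.83), BIRC3 (0.78) and PPP1CC (0.76), CXCL2 like TNFAIP3 (0.79), RELB (0.75) and KIF9 (0.73), and CXCL5 like CELF1 (0.83), PTX3 (0.79) and PDLIM4 (0.79). In the order control, eNAMPT, PDGF-BB and both, CCL2 averaged 166, 334, 357 and 603 CPM and IER3 750, 1137, 1237 and 1942 CPM. NFKBIA averaged 132, 266, 137 and 245 CPM in that order, and BIRC3 13.5, 27.5, 21.7 and 36.8 CPM.

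The receptors of these chemokines were nearly absent from the pericytes. CXCR1 had 1 read and CXCR2 had 2 reads over all 20 libraries, and the decoy receptor ACKR1, which takes up inflammatory chemokines, had 0. Of 10 CXC and decoy receptors 1 could be tested, ACKR3, a scavenger of CXCL12, and it was not called against control by edgeR, DESeq2 or limma-voom, nor at an unadjusted p under 0.05. Of 11 other CXC chemokines 3 could be tested, with the same outcome. CXCL12, a homeostatic chemokine that acts through CXCR4, averaged 45.9 ± 1.23, 52.1 ± 5.71, 49.6 ± 3.94 and 46.8 ± 6.30 CPM in the order control, eNAMPT, PDGF-BB and both. CXCL10, an attractant of T cells, was too low to test, at 0.606, 1.17, 1.41 and 2.01 CPM in the same order, and PPBP, the platelet neutrophil attractant inside the cluster, had no read.

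Of 16 genes for neutrophil growth factors, cytokines and leukocyte adhesion, 7 could be tested. VCAM1, an adhesion molecule for leukocytes, rose with eNAMPT (14.6 to 42.4 CPM, log2 fold change 1.53, adjusted p = 7.25e-08), the 1 gene of the list called there. With it, 4 of the 7 had an unadjusted p under 0.05, among them ICAM1 (0.79), IL1B (0.85) and IL6 (1.17). VCAM1, ICAM1 and LIF rose with PDGF-BB, and these 3 with IL1B, IL6 and CSF1 rose with both, so 6 of 7 passed. ICAM1, which binds neutrophil integrins, averaged 6.80, 11.8, 23.3 and 28.9 CPM in that order of groups. IL1B averaged 5.70, 10.1, 11.1 and 22.7 CPM and IL6 1.30, 2.99, 3.27 and 8.22 CPM. The 7 genes had a median log2 fold change of 0.79, 1.25 and 1.99 in these 3 comparisons, against 0.01 or less in size for all genes. The neutrophil growth factors CSF2 (34 reads in all) and CSF3 (13 reads) were too low to test.

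Among 16 tested genes of NF-kB factors and their inhibitors, 2 rose after eNAMPT, 3 after PDGF-BB and 7 after both. Of all genes, 0.0743%, 1.05% and 1.63% were called higher there. No gene of the list was called lower against control. At an unadjusted p under 0.05 by edgeR stood 6, 6 and 8 of the 16, and of all 12111 genes 437, 1168 and 1324. NFKBIA, the inhibitor IκBα and a target of NF-kB, rose with eNAMPT by 1.01 on the log2 scale (SE 0.08, adjusted p = 1.55e-12) and with both by 0.89 (adjusted p = 1.26e-11). Its value with PDGF-BB, 0.05 (SE 0.08, adjusted p = 0.912), was not called. TNFAIP3, the inhibitor A20, rose in all 3 comparisons, by 1.19, 1.23 and 1.76. NFKB1 (0.71) and RELB (0.80), which encode NF-kB subunits, rose with PDGF-BB and, with TNIP1, NFKBIZ and NFKBIE, also with both. With eNAMPT, NFKB1 stood at 0.31 (edgeR, unadjusted p = 0.0044) and RELB at 0.51 (unadjusted p = 0.0020), neither called. Between the single treatments NFKB1 was called higher with PDGF-BB (adjusted p = 0.0334), and RELB was not called (adjusted p = 0.549). The list's median log2 fold change was 0.23, 0.12 and 0.41.

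Of 13 tested AP-1, C/EBP and EGR factors, none was called with eNAMPT by edgeR or limma-voom, 1 was called by DESeq2, and 3 had an unadjusted p under 0.05. With PDGF-BB 4 rose (EGR1, FOSB, JUN and JUNB), and with both these 4, FOSL1 and CEBPB rose, 6 in all. EGR1, an immediate early factor, averaged 67.0, 91.8, 207 and 250 CPM in control, eNAMPT, PDGF-BB and both. The list's medians were 0.02, 0.35 and 0.57. With eNAMPT, JUNB had an adjusted p of 0.189 and EGR1 of 0.0981.

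**Figure D5:**
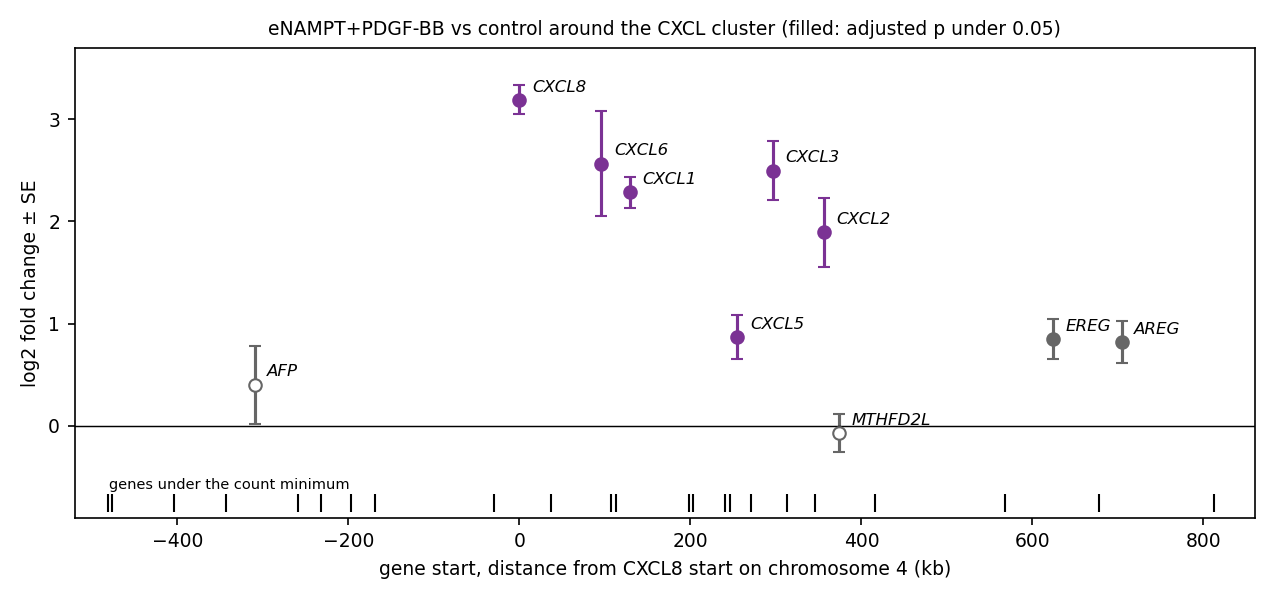
Log2 fold change with both proteins against control, with its SE (vertical axis), by distance of the gene start from the CXCL8 start on chromosome 4 in kb. Filled points passed an adjusted p under 0.05, and ticks mark genes with too few reads to test: the 6 chemokines lie at 0.87 to 3.19, above MTHFD2L and AFP, and EREG and AREG also passed.

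The 358.8 kb from CXCL8 to the end of CXCL2 hold 16 annotated genes, and the 6 that could be tested were the 6 members. The other 10, among them the platelet chemokines PF4 and PPBP, had at most 12 reads each over all libraries, and 7 of them had none. With 500 kb on each side the region held 33 genes, 10 of them tested. MTHFD2L, which starts next to CXCL2, averaged 18.4 CPM in control and 17.4 CPM with both (adjusted p = 0.942), and AFP was not called (adjusted p = 0.795). EREG and AREG, which encode ligands of the EGF receptor, rose with both by a log2 fold change of 0.85 (adjusted p = 0.00909) and 0.82 (adjusted p = 0.0169). Order along the chromosome did not follow the response: CXCL5, in the middle, had the smallest log2 fold change with both and its neighbour CXCL3 one of 2.50.

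The shared promoter run was also followed outside the family. Of the other genes tested, 51 held it in their RefSeq window, and 1 of them rose with eNAMPT (NFKBIA, 1.96%), where 0.0544% of 9190 genes with a window did. With PDGF-BB 4 of the 51 rose (DUSP6, ICAM1, NFKB1 and COL7A1, 7.84% against 1.04%). With both 8 rose (those 4, NFKBIA, NFKBIZ, ADGRL2 and OAS3, 15.7% against 1.56%). Their median log2 fold changes of 0.02, 0.07 and 0.03 lay near 0, and most genes with the run were not called. The run was taken from the members' own promoters, and these shares are descriptions.

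In the mRNAs, the pentamer AUUUA occurred 9 times in the 3′ UTR of CXCL8, 5 times in CXCL1, 7 in CXCL3, 10 in CXCL2, 6 in CXCL6 and 11 in CXCL5, against a median of 2 over 11045 tested genes. As many or more were found in 12.3% (for the number in CXCL5) to 31.5% (for that in CXCL1) of those genes. Per kb of 3′ UTR the members had 5.36 (CXCL6) to 13.9 (CXCL2), and the median gene had 1.75. A rate as high was found in 0.525% of genes for CXCL2 and in 8.12% for CXCL6. Among 15 factors that bind or act on AU-rich mRNAs, none was called with eNAMPT by edgeR or limma-voom and 1 by DESeq2, with 2 at an unadjusted p under 0.05. ZFP36L1 rose with PDGF-BB (0.35, adjusted p = 0.00203). With both, ZFP36L1, ZC3H12A, an RNase that cuts cytokine mRNAs, and its relative ZC3H12C rose. ZFP36, or tristetraprolin, averaged 5.53, 5.96, 7.56 and 8.10 CPM and was not called in any of the 3 comparisons. mRNA stability was not measured.

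Few of the genes that act on the secreted proteins were called. Of 9 tested proteases known to trim chemokines, CTSL was the 1 called, with PDGF-BB (log2 fold change 0.35, adjusted p = 0.0407). At an unadjusted p under 0.05 by edgeR stood 4 of the 9 with PDGF-BB and 3 with both. For the 16 genes below, these counts were 4 and 3, and for all 12111 genes 1168 and 1324. Of 16 proteoglycans and enzymes of heparan sulfate, which hold chemokines at cell surfaces, SDC4 rose with PDGF-BB (0.63, adjusted p = 1.04e-07) and with both (0.68, adjusted p = 6.09e-09), and none was called with eNAMPT (edgeR, DESeq2 and limma-voom, with 1 at an unadjusted p under 0.05).

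The cells carried markers of pericytes at uneven levels, and most markers of other cell types were low. Of 12 pericyte markers 11 could be tested, with PDGFRB, the PDGF-BB receptor, at 133 ± 11.4 CPM in control, and DES was under the count minimum. The other tested pericyte markers ranged in control from 3.07 CPM (KCNJ8) to 62.7 CPM (ANPEP). The leukocyte marker CD14 stood at 18.4 CPM there, above KCNJ8, NOTCH3 (7.96 CPM) and ABCC9 (7.87 CPM). No pericyte marker was called against control by edgeR, DESeq2 or limma-voom, with 2 or 3 of the 11 at an unadjusted p under 0.05. The sum of the pericyte markers ranged from 374 to 495 CPM over all libraries. Of 14 leukocyte markers 12 averaged under 1 read per library, LYZ, FCGR3B and TYROBP had none, and their summed level spanned 19.0 to 24.2 CPM in control and 15.0 to 26.0 CPM with both, mostly CD14. Endothelial markers summed to 5.45 to 14.7 CPM and epithelial markers to 0 to 5.92 CPM. Mitochondrial genes took 8.28% to 9.71% of reads. Stretches of 50 bases that another gene also holds made up 12.5% of CXCL2 transcript sequence, 6.01% of CXCL3 and 4.81% of CXCL1, all shared among these 3. How reads were divided between them is therefore uncertain. The share of reads affected is not known, since library kind and the treatment of reads with several matches are not given. Such stretches made up 2.16% for CXCL6, 1.12% for CXCL5 and 0 for CXCL8.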

How the data were processed

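RNA from 20 libraries was sequenced, and the authors deposited raw read counts per gene. Per the submitters' processing notes, FastQC 0.11.7, STAR 2.6.1a, featureCounts 1.6.4, DESeq2 1.18.1 and the build GRCh38 were used. Library kind, strand setting and the treatment of reads with several matches are not given in the sources used here. All 58676 gene IDs matched GENCODE 29, and 99 spike-in rows were kept out of library sizes. A second deposited count table with larger totals differed from the first in 8 of 120 counts of the 6 genes, by at most 3 reads.

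Counts were tested in edgeR 4.0.16 (R 4.3.3) with the default low-count filter by group, TMM scaling and the quasi-likelihood test, in one model of all 20 libraries. P-values were adjusted (Benjamini-Hochberg) over all 12111 genes within each comparison, with calls under 0.05. The SE was taken as the log2 fold change over the square root of F. Group means ± SD are of CPM. Since all 6 genes passed the filter, the permutation test planned for genes below it was not needed. Alternatives were other scalings, filters, DESeq2 1.42.0, limma-voom (limma 3.58.1), a replicate block, a threshold of 0.01, the second table and leaving out each library. The fit was tested on simulated counts. The 6 genes and all gene lists were chosen with earlier results of these data known. Named were all 6 genes, the called genes of each list, a few fixed receptors and regulators, and the 3 genes most correlated with each member (mean log2 CPM of at least 1).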

Additional observations from a re-analysis of the deposited data

Results flagged for a closer look

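With 6 genes in 4 groups, 24 sets of 5 libraries were examined for a library far from the rest, and chance flags about 1 in 20 groups. One set stood out. CXCL1 in eNAMPT replicate 4 measured 41.4 CPM, below the other 4 eNAMPT libraries at 54.0 to 57.4 CPM, and its gap to the nearest made up 0.785 of the group's range, above the critical value of 0.71. This library still lay above every control and every PDGF-BB library. Without any single library the log2 fold change of CXCL1 with eNAMPT stayed between 1.90 and 2.05.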

How the results depend on the processing

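The calls of CXCL8 and CXCL1 with eNAMPT, of CXCL8 and CXCL3 with PDGF-BB, and of CXCL8, CXCL1, CXCL3, CXCL2 and CXCL6 with both kept their direction and side of the threshold in every alternative run. Spike-in scaling, which moved the median log2 fold change of all genes with both to -0.14, lowered the number of genes called to 40 with PDGF-BB, 50 with both, 2 for both against PDGF-BB, 31 for both against eNAMPT (with 1 member, CXCL8) and 31 for PDGF-BB against eNAMPT. Without the low-count filter 14 genes were called with eNAMPT, 12 for both against PDGF-BB and 3 for the interaction. DESeq2 called 4 members (CXCL8, CXCL6, CXCL1 and CXCL3) among 14 genes with eNAMPT, and 11 genes for both against PDGF-BB, as did a fit of only these groups. At a threshold of 0.01 the counts were 88 genes with PDGF-BB, 137 with both, 117 for both against eNAMPT and 70 for PDGF-BB against eNAMPT.

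Leaving out 1 library at a time gave 2 to 3 members with eNAMPT, 2 to 3 with PDGF-BB, 5 to 6 with both and 2 to 3 for both against PDGF-BB. It gave 0 to 1 genes for the interaction and 81 to 118 genes for PDGF-BB against eNAMPT. The log2 difference of CXCL3 between PDGF-BB and eNAMPT ranged from -0.0449 (without PDGF-BB replicate 1) to 0.243, with -0.0349 without eNAMPT replicate 1. That of CXCL6 between both and eNAMPT ranged from -0.0126 (without replicate 2 of the group with both) to 0.401. None of these was called. The causes of these changes were not tested, beyond fewer genes or libraries entering a fit. The second table gave lower CPM from its larger totals (CXCL8 with both 318 CPM) and changed no call.

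Replicate numbers 1 to 5 recur in each group, but nothing in the labels says that a number marks a shared batch. Same-numbered libraries deviated together by r = 0.001 to 0.176 (median 0.09, 12 of 30 pairs over 0.1), against a median of -0.026 and 3 of 120 pairs over 0.1 for different numbers, and 12 of 20 libraries correlated best with their own number, a hint from the data only. A fit with the replicate block called 4 members and 21 genes with eNAMPT, 377 genes with PDGF-BB, 510 with both, 15 for both against PDGF-BB, 511 for both against eNAMPT and 362 for PDGF-BB against eNAMPT. In the block fit CXCL8 was also called between the single treatments (2 members there), and 7 genes with 1 member, CXCL8 (-0.50, adjusted p = 0.0451), were called for the interaction. Depth limits CXCL6 most, with 11 control reads in all.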
